A study of Homo sapiens with 6 samples.

Results

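Antisense noncoding transcripts of MDA-MB-231 cells, a human line of triple-negative breast cancer (TNBC), were compared between cells depleted of Sam68 and control cells. Members were the loci whose symbol ends in -AS and a digit, without the HOX clusters and without loci that join several names, and those described were selected on a mean normalized read count of at least 10 over the 6 libraries, the only measured value used. Of 74852 loci listed, 976 carried such a symbol, and 437 of the 976 passed this minimum, as did 18849 loci in all. The other 539 antisense loci stayed under it, and 323 of these were at 0 in every library. The minimum used values of both groups: 425 of the 437 had a mean of at least 10 in each group, 9 in si-CTRL only and 3 in si-SAM68 only.

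The 2 groups were cells that received non-targeting siRNA (si-CTRL, 3 libraries) and cells that received a mixture of 4 siRNAs directed to SAM68 (si-SAM68, 3 libraries), in 2 rounds of transfection, with RNA taken 24 h after the second round according to the sample labels. Both groups are of a single cell line, and a pool of siRNAs does not tell an effect of Sam68 loss from effects of single siRNAs. The study's methods name a harvest in triplicate, but whether the 3 libraries of a group came from separate cultures is not given. The p-values therefore measure the spread between these libraries, which may be technical. The reads on all loci were between 52625492 and 82568487 per library, and the 976 antisense loci held between 0.217% and 0.265% of them. KHDRBS1, the gene encoding Sam68, had a normalized read count of 14960 ± 620 in si-CTRL and 618 ± 45.8 in si-SAM68 (SD, n = 3 each). Of the markers of the line, VIM and CD44 were at 43246 or more in each library, whereas ESR1, PGR, CDH1 and EPCAM were at 15.2 or less. Replicate 2 of si-SAM68 stood apart: the ribosomal RNA locus took 15.1% of its reads and between 1.83% and 3.17% of those of the other libraries. RNAs without a poly(A) tail moved with it, since RMRP was at 4694 there and between 105 and 329 elsewhere, and the summed level of 55 histone loci was 35790 there, between 18360 and 18730 in the other si-SAM68 libraries and between 14130 and 16920 in si-CTRL. Results are therefore also given without this library.

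Antisense transcripts are made from the DNA strand opposite to a gene, the sense gene, after which they are named. They arise in a few arrangements: from a promoter shared with the sense gene and reading away from it, from inside the sense gene, or from beyond its end. Some are known to act on the gene next to them or on other RNAs, and for many no function is known. Sam68 is an RNA-binding protein of the STAR family that regulates splicing and 3' end processing and binds U/A-rich motifs such as UAAA.

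By position in the deposited table (hg19) and by strand in GENCODE, 301 of the 437 overlapped the body of the sense gene on the opposite strand. Another 122 were divergent, that is, on the opposite strand without overlap and with starts within 5000 bases. The remaining transcripts were 4 with starts farther apart, 1 convergent, 1 of unknown strand and 8 without a sense locus under the expected symbol. In each of the 428 pairs with both strands known the strands were opposite. Starts of divergent pairs lay a median of 117.5 bases apart (3 to 2017), and 116 of the 122 lay within 1000 bases. Among overlapping pairs the median distance was 4945 bases, with 99 pairs within 1000 bases and 48 transcripts lying wholly inside the sense gene. RefSeq now lists 68 of the 437 under a name ending in -DT, for divergent transcript, and 59 of these were in the divergent class. In GENCODE, 300 were of the type antisense, 65 lincRNA, 48 processed transcript and 6 bidirectional promoter lncRNA, whereas 3 (FAM83H-AS1, NCBP2-AS2 and TOPORS-AS1) were listed as protein coding. In GENCODE, exons of both genes were known for 428 pairs, which are not the same 428 as above, and shared bases in 272. Of these 272, 233 overlapped in the deposited table and may share reads. The others were 35 divergent pairs, 2 farther apart and 2 without a sense locus in the table. The library kit, TruSeq Stranded mRNA, keeps strand, but its use in counting was not stated.

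**Figure D1:**
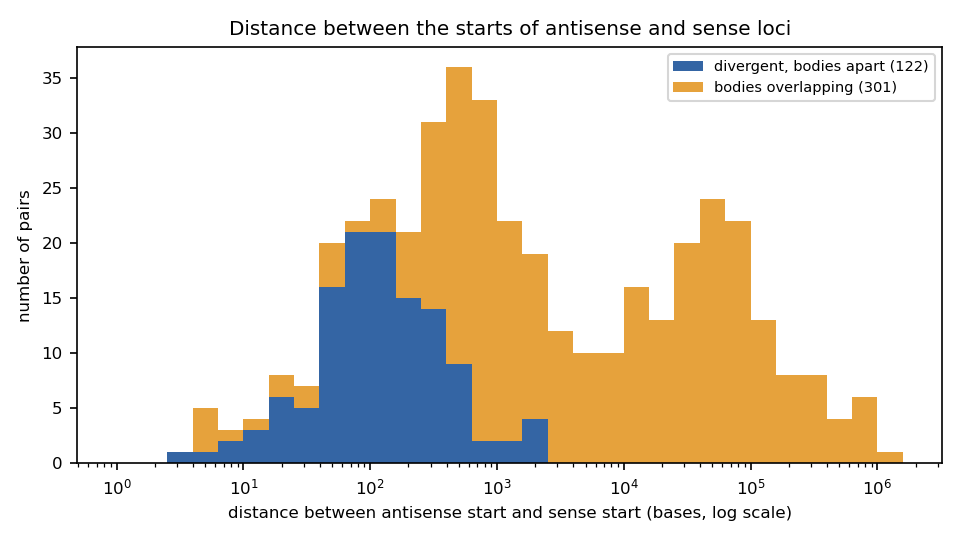
Number of antisense and sense pairs (y axis) by the distance between their transcription starts in bases (x axis, log scale), with divergent pairs (122) stacked under overlapping pairs (301). Divergent starts lie a median of 117.5 bases apart, and 99 of the overlapping pairs have starts within 1000 bases.

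Most of these transcripts were scarce. Their median of mean normalized read counts was 105 (10.0 to 24207), against 610.1 for all 18849 loci and 1682 for the sense genes, and 210 of the 437 were under 100 while 33 reached 1000. Per kilobase of GENCODE exons, the sense gene exceeded its antisense transcript by a median ratio of 4.64 over 363 pairs, and the antisense transcript was the higher of the pair in 80. The minimum fell between STEAP2-AS1 and ZNF528-AS1, just inside with means of 10.0 and 10.2, and DENND5B-AS1 and C2-AS1, just outside with 9.89 and 9.87.

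The 5 transcripts with the highest counts held 31.6% of the summed signal of the 437. FGD5-AS1 (hg19 chr3:14961862-14989948, minus strand; coordinates of loci are in hg19 throughout) was the highest, at 18840.0, 24502 and 25152 in si-CTRL and 25238, 24504 and 27006 in si-SAM68. The groups overlapped, and the log2 fold change was 0.17 ± 0.11 (SE, limma adjusted p = 0.339). FGD5, its sense gene and a guanine nucleotide exchange factor, was nearly silent, between 1.94 and 10.1 per library. MAGI2-AS3 likewise exceeded its gene MAGI2, which encodes a membrane scaffold: the antisense was between 4437 and 5546 and MAGI2 between 659 and 831, a sense to antisense ratio per kilobase of 0.0564. EMC3-AS1, beside the gene of an ER membrane complex subunit, was at 7279, 6556 and 6318 in si-CTRL and 5239, 5344 and 5255 in si-SAM68. All 3 si-SAM68 libraries lay below the controls (log2 fold change -0.35 ± 0.08, limma adjusted p = 0.0219), under the 1.5-fold minimum, whereas EMC3 itself gave 0.08 ± 0.07. PAX8-AS1, which overlaps the transcription factor gene PAX8, was between 3894 and 4943 in si-CTRL and between 3532 and 3715 in si-SAM68 (log2 fold change -0.27 ± 0.09, limma adjusted p = 0.0976).

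OIP5-AS1 (chr15:41576201-41594170, plus strand), also known as cyrano, was the second highest by counts. It was at 9671, 12958 and 11903 in si-CTRL and at 15040.0, 16049 and 18467 in si-SAM68, so that each si-SAM68 library exceeded each control. Its log2 fold change was 0.53 ± 0.12 (limma adjusted p = 0.0210), again under the 1.5-fold minimum. OIP5, the gene of a centromere protein that gave it its name, lies apart from it and went from 1322, 2299 and 2389 to 2744, 2474 and 2898 (0.48 ± 0.19, limma adjusted p = 0.147). The difference between the pair's changes was 0.05 ± 0.18.

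A transcript was called at an unadjusted p of at most 0.05 and a fold of at least 1.5 in a limma fit over all 18849 loci. These are the thresholds of the study's methods, but the study applied them in its own analysis. It reported fewer regulated genes than the 1445 loci called here, so that the calls are not the study's. By this rule 36 of the 437 were called (8.24%), against a background of 7.67% of all loci tested, a share near the background. The directions were unequal: 33 were lower in si-SAM68 (7.55%, background 4.83%) and 3 were higher (0.687%, background 2.83%). Of all calls over the table, 63.0% were lower, and of those on antisense transcripts 91.7%. At an adjusted p under 0.05 and no minimum fold, 24 of the 437 passed (5.49%, background 10.7%). Lower were 19 of the 437 (background 6.23% of all loci) and higher 5 of the 437 (background 4.47%). By this measure lower transcripts were not more frequent than in the background, since even both directions together made up 5.49%. The groups did not overlap for 118 transcripts (27.0%, background 33.9%). Of the 437, 80 were so separated and lower (background 17.3% of all loci) and 38 higher (background 16.6%). They did not overlap for 31 of the 36 called, and over all loci for 1342 of the 1445 called. The median log2 fold change of the 437 was -0.07 and that of all loci 0.01, with 170 antisense transcripts above 0 and 267 below. In a bulk sample of this kind, less RNA per cell and fewer cells that make a transcript cannot be told apart.

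Calls were most frequent among scarce transcripts. With a mean from 10 to under 50, 19 of 141 were called (background 11.8% of loci of the same level), and 18 of these were lower (12.8%, background 7.21%). From 50 to under 200, 12 of 153 were called (background 14.8%), 11 of them lower (7.19%, background 9.47%). At 200 or more, 5 of 143 were called (background 4.65%), 4 of them lower (2.80%, background 2.98%). The share called lower was thus above that of loci of like level in the lowest of the 3 ranges and not in the other 2. In each range 1 transcript was called higher, whereas the background of higher calls was 4.61%, 5.34% and 1.67%. Single libraries moved the split: without si-CTRL replicate 1, 6 were called higher and 21 lower (background 2.47% and 4.43% of all loci), without si-CTRL replicate 2 6 and 29 (4.44% and 5.27%), without si-CTRL replicate 3 9 and 21 (3.33% and 4.71%), and without si-SAM68 replicate 1 4 and 20 (3.05% and 4.72%). Leaving out si-SAM68 replicate 2, the library with the large ribosomal share, gave 4 higher (background 2.5%) and 29 lower (background 5.02%). The calls held in each of the 6 leave-outs for 12 transcripts, among them AFDN-AS1 and MBNL1-AS1 of the higher and LYRM4-AS1, DNAJB5-AS1, SNRK-AS1, HHIP-AS1, JARID2-AS1, NUP50-AS1, MEIS1-AS3, NNT-AS1 and SP2-AS1 of the lower.

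**Figure D2:**
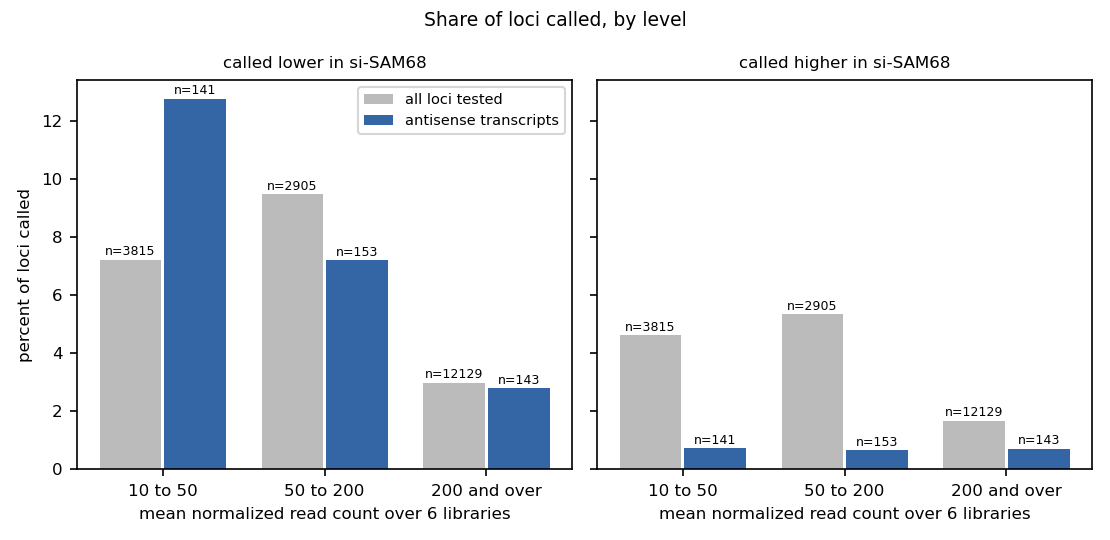
Percent of loci called (y axis) lower (left) and higher (right) in si-SAM68, by mean normalized read count over 6 libraries (x axis), for all loci tested (grey) and antisense transcripts (blue), with the number of loci above each bar. Antisense transcripts exceed all loci in lower calls at a mean from 10 to under 50 (12.8% against 7.21%) and lie below them in higher calls in each range.

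MBNL1-AS1 (chr3:151980425-151987415, minus strand) gave the smallest adjusted p of the 437. It starts beside MBNL1, the gene of a muscleblind splicing regulator, and shares 1140 bases of exon with it on the opposite strand. Its normalized read count was 1209, 1194 and 1242 in si-CTRL and 1949, 1989.7 and 2031 in si-SAM68. The controls lay close together, and each depleted library stood above them. The log2 fold change was 0.71 ± 0.08 (limma adjusted p = 0.000853). MBNL1 itself was not called, at 8285, 6192 and 6300.0 against 6281, 6886 and 6506 (-0.07 ± 0.11), and the pair's difference of 0.78 ± 0.14 did not overlap between the groups (exact permutation p = 0.1, the smallest that 3 against 3 libraries allow).

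AFDN-AS1 (chr6:168224570-168227476, minus strand), divergent from the gene of the cell junction protein afadin, was at 11.2, 11.6 and 14.3 in si-CTRL and at 22.2, 29.4 and 42.4 in si-SAM68. These counts were low and those of si-SAM68 spread widely, though without overlap. The log2 fold change was 1.23 ± 0.34 (limma adjusted p = 0.0439, and 0.0508 with the replicate number as a block), whereas AFDN gave 0.00 ± 0.09. A further transcript passed the adjusted threshold in this direction and is named after its values were seen: THUMPD3-AS1 went from 2269.7, 2609 and 2915 to 3676, 3461 and 3895, without overlap (0.51 ± 0.10, limma adjusted p = 0.0140).

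**Figure D3:**
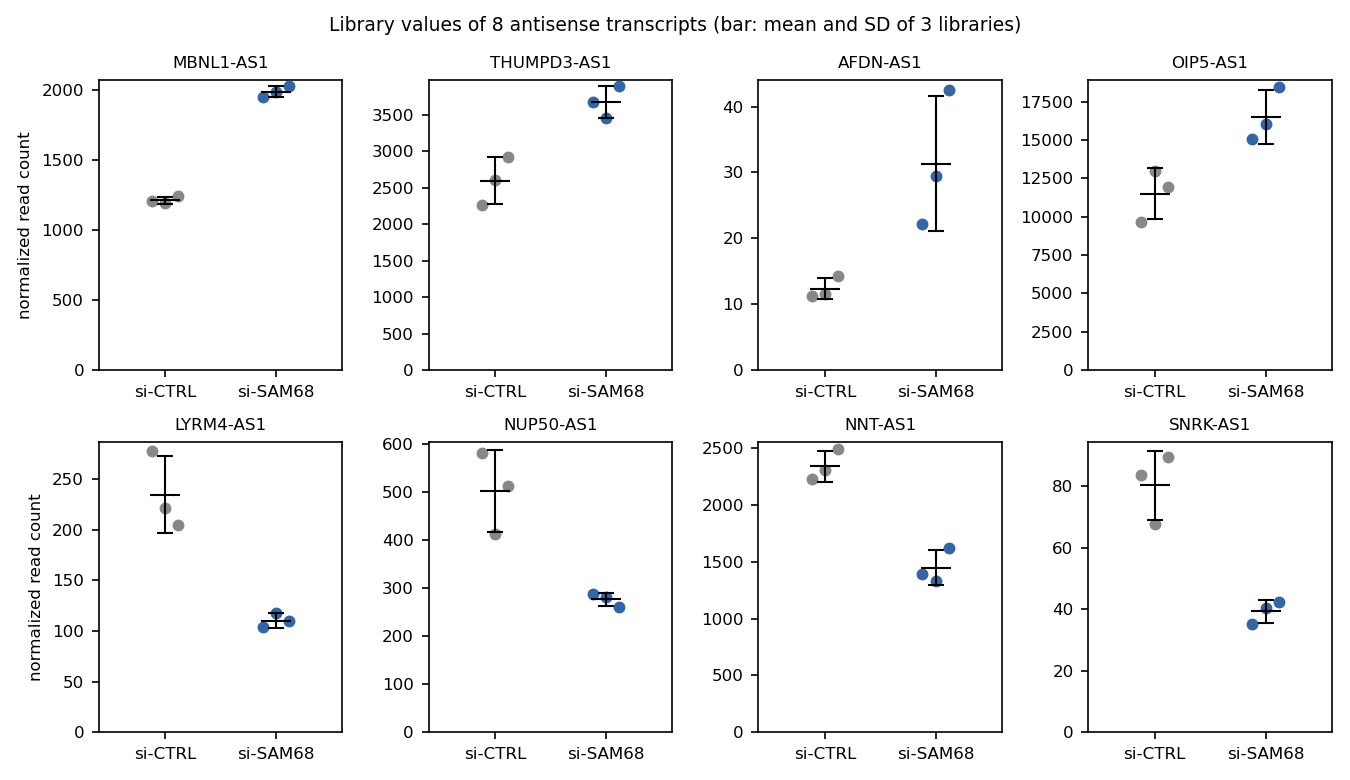
Normalized read count (y axis, from 0) of 8 antisense transcripts in each library of si-CTRL (grey) and si-SAM68 (blue), with bars for the mean and SD of 3 libraries. The 4 transcripts of the upper row are higher and the 4 of the lower row lower in each si-SAM68 library than in each control, as for MBNL1-AS1 (mean 1215 against 1990.0) and NNT-AS1 (2339 against 1447).

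Among the transcripts that fell, the ones with the smallest adjusted p were NNT-AS1, LYRM4-AS1 and NUP50-AS1. NNT-AS1 (chr5:43573287-43603332, minus strand) reads away from the gene of the mitochondrial nicotinamide nucleotide transhydrogenase, from a start inside its body. It was at 2222, 2306 and 2488 in si-CTRL and at 1389, 1331 and 1619.7 in si-SAM68. It was the most abundant of the called transcripts, and its groups were far apart: the log2 fold change was -0.70 ± 0.10 (limma adjusted p = 0.00271). NNT gave -0.14 ± 0.08, and the difference within the pair was -0.55 ± 0.11.

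LYRM4-AS1 (chr6:5004050-5240729, plus strand) covers much of LYRM4, a gene for iron-sulfur cluster assembly, from the far end. Its counts were 277, 222 and 204 in si-CTRL and 104, 118 and 109 in si-SAM68. The depleted libraries lay close together at less than any control (log2 fold change -1.07 ± 0.16, limma adjusted p = 0.00331), while LYRM4 gave -0.26 ± 0.08 and the pair differed by -0.81 ± 0.21. NUP50-AS1 (chr22:45529639-45559718, minus strand) starts, in the deposited table, 8 bases from the nuclear pore gene NUP50 in the opposite direction. It was at 581, 412 and 512 in si-CTRL and 287, 281 and 261 in si-SAM68, again without overlap. Its log2 fold change was -0.84 ± 0.14 (limma adjusted p = 0.00605), NUP50 gave -0.29 ± 0.09 and the difference of the pair was -0.56 ± 0.12.

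The promoters of these 3 transcripts that fell and of OIP5-AS1, the abundant transcript that rose, are shown because they carry the starts behind the values above. The sequences are RefSeq's (GRCh38.p14), from 250 bases before the start to 50 after it, 5' to 3' along the antisense transcript, with the transcribed bases in capitals. NNT-AS1 is at chr5:43603181-43603480 (minus strand), LYRM4-AS1 at chr6:5003566-5003865 (plus), NUP50-AS1, which RefSeq calls NUP50-DT, at chr22:45163732-45164031 (minus) and OIP5-AS1 at chr15:41283740-41284039 (plus).
NNT-AS1: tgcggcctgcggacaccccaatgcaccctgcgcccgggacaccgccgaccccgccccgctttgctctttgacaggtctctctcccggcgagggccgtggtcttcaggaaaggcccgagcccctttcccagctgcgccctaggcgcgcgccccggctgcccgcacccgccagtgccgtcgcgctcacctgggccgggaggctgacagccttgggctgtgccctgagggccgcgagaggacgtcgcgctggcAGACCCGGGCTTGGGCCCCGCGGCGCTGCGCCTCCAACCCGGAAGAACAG
LYRM4-AS1: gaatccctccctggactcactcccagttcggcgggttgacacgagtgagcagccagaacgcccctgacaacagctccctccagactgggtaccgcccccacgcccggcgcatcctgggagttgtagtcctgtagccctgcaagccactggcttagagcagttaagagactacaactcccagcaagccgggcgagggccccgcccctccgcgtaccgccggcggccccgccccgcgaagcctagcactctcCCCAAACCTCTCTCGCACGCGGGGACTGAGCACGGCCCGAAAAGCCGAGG
NUP50-AS1: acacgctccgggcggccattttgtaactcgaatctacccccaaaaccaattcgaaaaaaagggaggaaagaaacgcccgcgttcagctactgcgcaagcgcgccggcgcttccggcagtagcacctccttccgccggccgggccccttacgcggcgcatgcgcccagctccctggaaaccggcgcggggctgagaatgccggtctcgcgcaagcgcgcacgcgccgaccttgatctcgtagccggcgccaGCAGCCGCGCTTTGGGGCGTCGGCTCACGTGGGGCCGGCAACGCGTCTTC
OIP5-AS1: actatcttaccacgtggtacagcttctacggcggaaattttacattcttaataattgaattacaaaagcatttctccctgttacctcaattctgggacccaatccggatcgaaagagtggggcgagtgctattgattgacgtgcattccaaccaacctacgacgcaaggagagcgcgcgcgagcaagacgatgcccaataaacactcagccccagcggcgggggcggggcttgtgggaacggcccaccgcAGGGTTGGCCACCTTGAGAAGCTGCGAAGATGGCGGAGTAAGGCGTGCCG
The GC content of these windows was 74.0%, 67.0%, 67.0% and 54.3%. CCGGAA, one form of the sites bound by ETS factors, occurred on either strand in those of NNT-AS1 and NUP50-AS1. Other forms of such sites were not searched. CCAAT occurred in those of NNT-AS1, NUP50-AS1 and OIP5-AS1, and TATAAA in none of the 4. The window of NUP50-AS1 shares 243 bases with that of NUP50.

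Promoters were found in RefSeq's table for 334 of the 437 transcripts. CCGGAA was present in 24.25% of them (31.5% of 92 divergent ones), against 17.25% of 35116 RefSeq promoters of the same length. CCAAT was in 31.4%, against 34.6%, and TATAAA in 5.69%, against 11.5%. The median GC content was 66% over the antisense promoters and 58.7% over all. None of these 3 motifs contains another, each was searched on both strands, and a match is a description of the letters only. TAAA and its reverse complement TTTA were counted together in the longest GENCODE transcript of each locus. Only TAAA corresponds to the UAAA named above, so the sum does not measure that motif alone. The sum had a median of 10.0 per kilobase in the transcripts called lower, 10.0 in those not called and 18.5 in the 3 called higher, a difference that was not tested.

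A further 6 lower transcripts passed the adjusted threshold together with the fold. SNRK-AS1, on the opposite strand of the kinase gene SNRK, fell from 83.7, 67.8 and 89.4 to 35.3, 40.5 and 42.4 (log2 fold change -1.004 ± 0.20, limma adjusted p = 0.0151). JARID2-AS1, inside the gene of a Polycomb complex component, went from 76.2, 53.3 and 59.9 to 37.3, 25.8 and 35.7 (-0.92 ± 0.24, limma adjusted p = 0.0410). MEIS1-AS3, upstream of the homeobox gene MEIS1, went from 147, 133 and 157 to 93.7, 87.4 and 74.8 (-0.77 ± 0.16, limma adjusted p = 0.0168). In each of these the libraries of si-SAM68 were the 3 lowest, while the sense genes gave -0.17, -0.06 and -0.11. SH3BP5-AS1, SOCS2-AS1 and TRAF3IP2-AS1 had log2 fold changes of -0.69, -0.62 and -0.59, with limma adjusted p-values of 0.0181, 0.0161 and 0.0289. SOCS2, a suppressor of cytokine signalling, gave -0.47 ± 0.14, and TRAF3IP2, an adaptor in inflammatory receptor signalling, gave 0.27 ± 0.14 beside an antisense transcript that fell.

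Other lower calls rested on few reads. FAM212B-AS1 had the largest log2 fold change of the 437, -1.35 ± 0.54, from 8.75, 18.4 and 18.1 to 8.06, 6.44 and 2.23, with an adjusted p of 0.140 in limma. The lowest control lay next to the highest si-SAM68 library. DNAJB5-AS1, divergent from the gene of a heat shock co-chaperone, was at 22.5, 25.2 and 22.8 in si-CTRL and at 15.1, 9.20 and 8.94 in si-SAM68 (-1.06 ± 0.34, limma adjusted p = 0.0784). RAD21-AS1, beside a cohesin gene, was at 36.2, 31.0 and 54.2 against 16.1, 22.997 and 21.2 (-0.95 ± 0.30). The groups did not overlap, and the sense locus, which joins RAD21 with MIR3610, gave 0.14. RBPMS-AS1 and ZMIZ1-AS1 were called with overlapping groups, at 25.0, 44.6 and 45.6 against 27.2, 11.959 and 21.2 and at 66.2, 47.5 and 68.4 against 53.4, 30.4 and 26.8. The same holds for STXBP5-AS1, at 87.5, 70.7 and 106 against 36.3, 51.5 and 73.7. MID1IP1-AS1 and LAMTOR5-AS1 gave log2 fold changes of -0.72 ± 0.27 and -0.70 ± 0.28, both at means under 50 and without overlap.

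**Figure D4:**
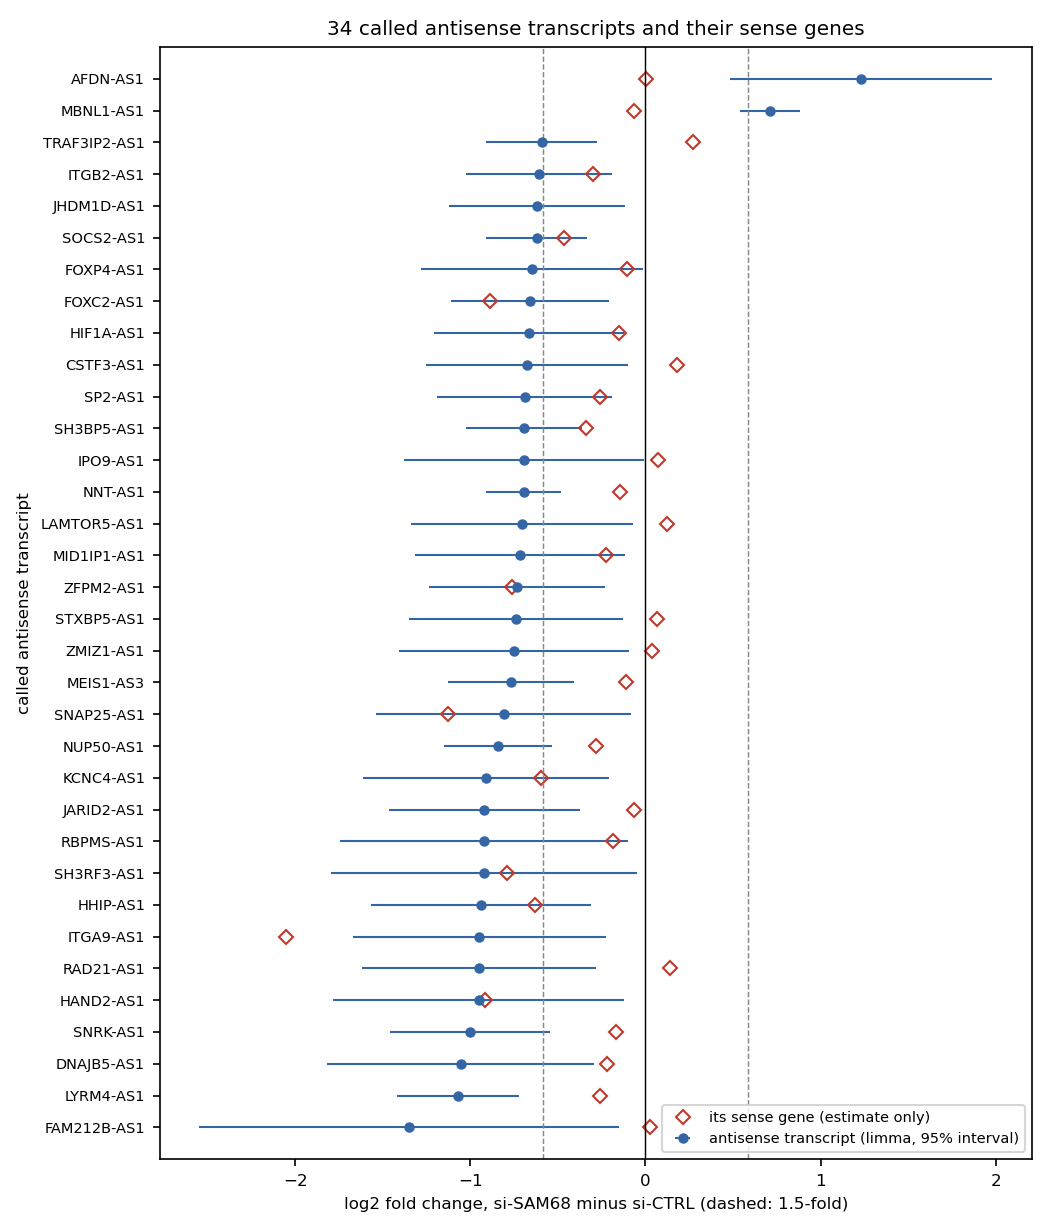
Log2 fold change, si-SAM68 minus si-CTRL (x axis), of 34 of the 36 called antisense transcripts (y axis; points with 95% limma intervals) and of their sense genes (open diamonds, estimate only), with the 1.5-fold limits dashed. AFDN-AS1 and MBNL1-AS1 lie above 0, the other 32 below, and the sense genes of 25 of the 33 pairs drawn lie between the dashed lines.

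Both genes of a pair were tested in 398 pairs, which hold 394 sense loci. Of the sense loci, 34 were called (8.63%, background 7.67%), 5 higher and 29 lower, so that lower calls also prevailed there (7.36%, background 4.83%). In 8 pairs both members were called, that is, in 8 of the 35 pairs with a called antisense transcript and in 8 of the 34 with a called sense gene, and each time both were lower. In 27 pairs the antisense transcript alone was called and in 26 the sense gene alone. Over the 398 pairs both changes were below 0 in 153, both above in 88 and opposite in 157. Pearson's r between the 2 changes was 0.252 and Spearman's rho 0.265. The pairs share the same 6 libraries and, where both the loci and their exons overlap, possibly reads. With overlapping exons r was 0.292 (249 pairs) and without them 0.195 (142 pairs). The median difference, antisense minus sense, was -0.02 on the log2 scale, and in 108 pairs (27.1%) the differences of the libraries did not overlap between the groups. A share over other pairs of loci was not computed, so this count has no background.

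**Figure D5:**
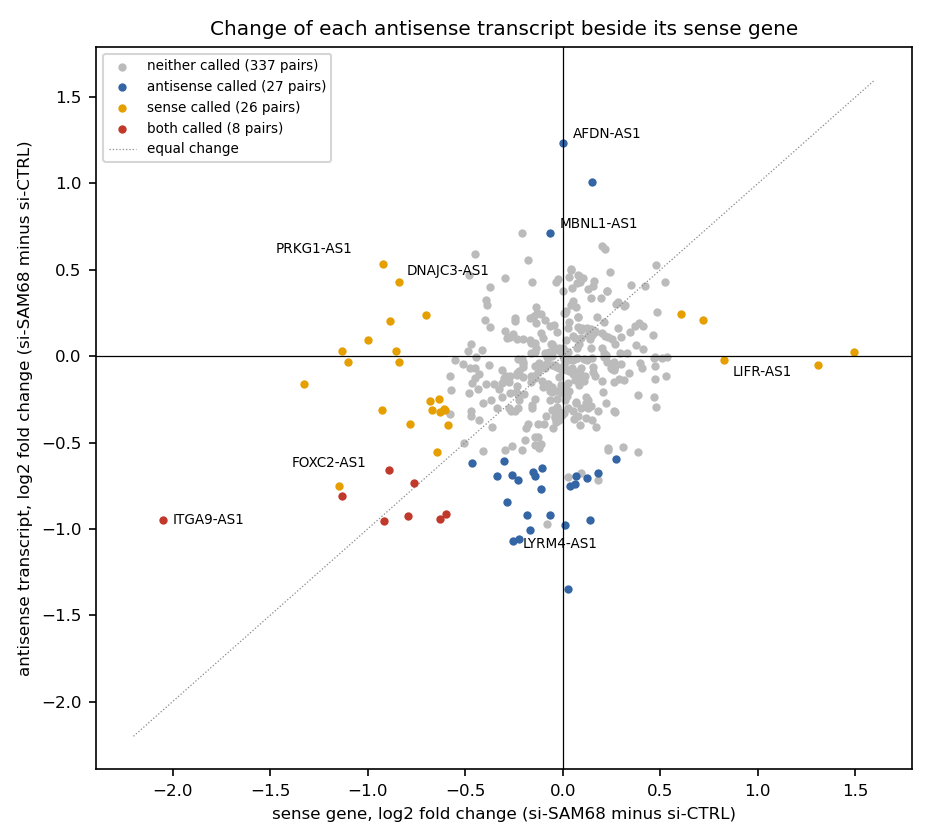
Log2 fold change of each antisense transcript (y axis) against that of its sense gene (x axis), si-SAM68 minus si-CTRL, for 398 pairs, coloured by which member was called. The 8 pairs with both called lie at the lower left, and the 27 with the antisense transcript alone called lie above or below the centre at sense changes from -0.47 (SOCS2) to 0.27 (TRAF3IP2).

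The 8 pairs with both genes called were each lower in si-SAM68, though none of the 8 antisense transcripts passed an adjusted p of 0.05 in limma (0.0609 for HHIP-AS1 to 0.164 for SH3RF3-AS1). HAND2, a transcription factor of heart and limb, fell from 359, 317 and 329 to 192, 160.1 and 179 (-0.92 ± 0.13, limma adjusted p = 0.00260), beside HAND2-AS1 at 31.2, 23.2 and 17.1 against 8.06, 12.9 and 14.5 (-0.95 ± 0.37). SNAP25, a SNARE protein of synaptic vesicle fusion, fell from 184, 158 and 163 to 74.5, 74.5 and 79.3 (-1.13 ± 0.15, limma adjusted p = 0.00209), and SNAP25-AS1 was at 49.993, 38.7 and 39.0 against 19.1, 38.6 and 17.9 (-0.81 ± 0.33). ITGA9, an integrin subunit, was at 22.5, 26.2 and 25.7 against 2.01, 5.52 and 11.2 (-2.05 ± 0.51, limma adjusted p = 0.0333), with ITGA9-AS1 at 26.2, 44.6 and 27.6 against 15.1, 20.2 and 13.4. In these 3 pairs no si-SAM68 library reached a control library for either gene, though SNAP25-AS1 came close in replicate 2. SNAP25-AS1 was not called by DESeq2 or by edgeR, with or without the replicate number as a block, and HAND2-AS1 and SH3RF3-AS1 were not called by DESeq2. Leaving out 1 library at a time, HAND2-AS1 lost its call without si-CTRL replicates 1 and 2 and si-SAM68 replicate 1, and SNAP25-AS1 without si-CTRL replicate 1 and si-SAM68 replicates 1 and 3.

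FOXC2, a forkhead transcription factor linked to mesenchymal cells, went from 654, 360.3 and 373 to 222, 235 and 265 (-0.89 ± 0.21, limma adjusted p = 0.0269), and FOXC2-AS1 from 104, 122 and 163 to 92.7, 75.4 and 73.7 (-0.66 ± 0.20, limma adjusted p = 0.0647). HHIP, an inhibitor of hedgehog ligands, gave -0.63 ± 0.16 (limma adjusted p = 0.0312) and HHIP-AS1, which starts 26 bases from it, -0.94 ± 0.28 (from 87.5, 48.4 and 65.6 to 25.2, 40.5 and 36.9). ZFPM2, a cofactor of GATA factors, gave -0.76 ± 0.16 and ZFPM2-AS1, whose start lies far downstream, -0.73 ± 0.23. SH3RF3 and the potassium channel gene KCNC4 gave -0.79 ± 0.13 and -0.60 ± 0.14, and their antisense transcripts -0.92 ± 0.39 and -0.91 ± 0.31. KCNC4-AS1 was called with overlapping groups, at 62.5, 36.8 and 59.9 in si-CTRL against 21.2, 39.6 and 23.5 in si-SAM68. It kept its call in 3 of the 6 leave-outs, and SH3RF3-AS1 in 2. The difference within a pair lay between -0.31 and 1.10 over these 8 pairs and overlapped between the groups in each, with exact permutation p-values of 0.2 to 1.

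Other pairs parted. The pairs that follow were chosen after their values were seen. DNAJC3, a co-chaperone of the endoplasmic reticulum, fell from 1986, 2135 and 2331 to 1018, 1377 and 1228 (-0.84 ± 0.12, limma adjusted p = 0.00288), while the divergent DNAJC3-AS1 was at 104, 92.0 and 99.8 against 145, 128 and 126 (0.43 ± 0.15, limma adjusted p = 0.0999). PRKG1, a cGMP-dependent kinase, went from 81.2, 74.6 and 92.2 to 35.3, 53.4 and 42.4 (-0.92 ± 0.22, limma adjusted p = 0.0262), beside PRKG1-AS1 at 82.5, 90.1 and 105 against 157, 125 and 122 (0.54 ± 0.17, limma adjusted p = 0.0771). LIFR, the receptor of leukemia inhibitory factor, rose from 2437, 3382 and 2893 to 4761, 5432 and 5169 (0.83 ± 0.12, limma adjusted p = 0.00279) with LIFR-AS1 between 252 and 323 in all 6 libraries (-0.02 ± 0.13). The differences within these 3 pairs, 1.27 ± 0.21, 1.46 ± 0.28 and -0.85 ± 0.22, did not overlap between the groups (exact permutation p = 0.1, the smallest possible). In a further pair both estimates were below 0: ZEB1, a transcription factor of the epithelial-to-mesenchymal transition, gave -0.63 ± 0.12 (limma adjusted p = 0.0121), and ZEB1-AS1 was at -0.32 ± 0.11 (limma adjusted p = 0.0944), with a pair difference of 0.31 ± 0.16 that overlapped between the groups (exact permutation p = 0.2).

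Of a list of 63 antisense RNAs, 45 were tested and 9 called (20%, background 7.67%), 8 lower and 1 higher. The median log2 fold change of the 45 was -0.04 against 0.01 for all loci. The list holds RNAs that cancer studies often name, in part taken from the study's supplementary tables. Those tables include lists of genes regulated in these same samples, and RNAs picked from them were likely to be called. The 20% is therefore not independent of these samples and cannot be read as an excess over the background. Besides NNT-AS1, LYRM4-AS1, NUP50-AS1, HAND2-AS1, FOXC2-AS1 and MBNL1-AS1, the 9 were HIF1A-AS1, FOXP4-AS1 and ITGB2-AS1, of which FOXP4-AS1 was not called by edgeR or DESeq2. HIF1A-AS1 was at 51.2, 46.5 and 65.6 against 30.2, 41.4 and 30.2 (-0.67 ± 0.24, limma adjusted p = 0.111), while HIF1A, the hypoxia factor, was between 48567 and 63442 (-0.15 ± 0.09).

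Other noncoding loci are given for comparison. Of 219 loci with a LINC symbol, for intergenic RNAs, 18 were called (8.22%, background 7.67%), 15 lower and 3 higher, with a median log2 fold change of -0.06. By arrangement, 26 of 301 overlapping antisense transcripts were called lower (8.64%) and 2 higher, and 6 of 122 divergent ones lower (4.92%) and 1 higher, against 4.83% and 2.83% of all loci. No difference between these classes was tested. None of 6 HOX antisense loci and none of 17 joined loci that hold an antisense name were called by limma, though 2 and 4 of them had an unadjusted p of at most 0.05. Under the minimum mean of 10, 216 further antisense loci could be fitted when the minimum was dropped. Of these 216, 19 were called (background 5.62% of 14510 loci under the minimum), 5 of them higher (background 2.61%) and 14 lower (background 3.02%). An adjusted p under 0.05 was reached by 1.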

How the data were processed

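RNA-seq libraries of 6 MDA-MB-231 samples were analysed, grouped by their labels. The authors deposited 1 table for the series, whose values are a signal: reads counted on FAST DB v2016_1 loci (hg19), divided by the DESeq2 size factor of each library. The submitters' processing notes name STAR 2.4.0, SAMtools, Picard, FastQC and DESeq2. Per the labels the library kit keeps strand, but the counting program and its use of strand are not given in the sources used here, and labels and methods differ in harvest time and extraction kit. Values were whole multiples of a step per library in 100% of cases (tolerance 0.02), taken as reads.

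Members and lists were chosen with earlier results of these data known. limma 3.58.1 in R 4.3.3 (eBayes with a trend, two-sided) was applied to normalized read counts plus 1, as log2, at the 18849 loci that reached a mean of 10. Fold changes are on this scale, which understates those of low loci. Calls required an unadjusted p of at most 0.05 and a fold of at least 1.5, and p-values were adjusted by Benjamini-Hochberg across the whole table. Named were the 24 called members with the largest change, the 5 with the highest counts, pairs with both called, members at the minimum, KHDRBS1, and members of the studied list past an adjusted p of 0.05. Other names were chosen after their values were seen. Some called members count in the totals but are not reported here. The sense gene is the symbol without its -AS suffix, matched to a locus of that symbol alone (401) or to a locus that joins it with other names (28). Pair differences were tested with two-sided exact permutation tests over libraries. Strand, type and exons came from GENCODE (GRCh38) by symbol (430 of 437 matched), without mixing coordinates.

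Deviations from group means correlated weakly, at 0.105, 0.231 and 0.125 for libraries of the same replicate number and at -0.125 to 0.007 for others. The labels do not say whether the numbers pair the libraries. The main fit was therefore unpaired, and a block by replicate number was an alternative. Others were pseudocounts of 0.1 and 5, no minimum and 50, TMM, quantile normalization, a robust trend, each library left out, edgeR 4.0.16 and DESeq2 1.42.0 on the recovered reads and, chosen after seeing the data, edgeR with the block, calls without overlap and pairs without shared exons. On simulated counts limma recovered 184 of 200 changed loci at an adjusted p under 0.05, with 13 unchanged loci, and 197 by the call rule, with 166 unchanged loci. The changed loci were drawn from all loci tested and given changes larger than the 1.5-fold limit. The spread between libraries was assumed, without pairing and without a library like si-SAM68 replicate 2. Recovery among the scarcer antisense transcripts was not measured. With 3 libraries per group and 52625492 to 82568487 reads, members near the minimum rest on about 10 reads per library.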

Additional observations from a re-analysis of the deposited data

How the results depend on the processing

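With each alternative the share of lower calls stayed above that of higher calls. The 437 transcripts gave 36 calls, and 34 to 36 with pseudocounts of 0.1 and 5, TMM factors, a robust trend and no minimum, 30 with quantile normalization, 33 with edgeR and 27 with DESeq2, each with 3 higher. Over all 18849 loci there were 1445 calls, and 1394 to 1441 with the pseudocounts, TMM factors and a robust trend. There were 1432 with quantile normalization, 1498 with edgeR and 1334 with DESeq2, and 2240 of 33359 loci without a minimum. With a minimum mean of 50, 296 transcripts were tested and 16 were called, 14 of them lower. Over all loci 989 of 15034 were then called, 633 of them lower. With the replicate block 38 were called, the 36 and 2 more, and 21 passed an adjusted p of 0.05 against 24: AFDN-AS1 (0.0508), MSC-AS1 (0.0545), AADACL2-AS1 (0.0664) and MZF1-AS1 (0.0708) did not, and VIM-AS1 (0.0413) did. Over all loci the block gave 1514 calls, and 1697 passed an adjusted p of 0.05 against 2017. In limma the block changed no other call named here. In edgeR with the block 35 were called (1517 over all loci), SNAP25-AS1 not among them. An adjusted p under 0.05 alone gave 5 higher and 19 lower transcripts, and 62 sense genes against 34, with 20 higher against 5. The median log2 fold change of -0.065 became -0.045 with quantile normalization.

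Leaving out each library gave 24 to 35 called transcripts, 4 to 9 higher and 20 to 29 lower, a median of -0.088 to -0.051, and 32, 21 and 14 at an adjusted p under 0.05 without si-CTRL replicates 1, 2 and 3 and 10, 8 and 6 without those of si-SAM68. Over all loci 1301 to 1831 were called, and 2839, 1592, 1103, 923, 808 and 625 passed the adjusted p, in the same order of libraries. Of the 36, 22, 25, 23, 23, 30 and 24 remained called, in the same order. Sense genes called higher were 3 with a minimum of 50, and the leave-out ranges of sense genes were 25 to 41 in all, 3 to 7 higher, 22 to 34 lower, with a median of -0.041 to -0.011 against -0.028. The median pair difference of -0.023 ranged from -0.059 to -0.00741.

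Sense genes whose change was near 0 turned sign. AFDN was at -0.00205 with quantile normalization and at -0.071, -0.027 and -0.00466 without si-CTRL replicate 3, si-SAM68 replicate 2 and si-SAM68 replicate 3. Without si-CTRL replicate 1, FAM212B was at -0.046, JARID2 at 0.087, LAMTOR5 at -0.056 and MBNL1 at 0.069. Without si-SAM68 replicates 1 and 3, FAM212B was at -0.033 and -0.093, and ZMIZ1 was at -0.031 and -0.093 without si-CTRL replicates 2 and 3. With the other libraries left out in turn the highest value of these genes was 0.080 for AFDN, 0.20 for FAM212B, 0.25 for LAMTOR5 and 0.24 for ZMIZ1, and the lowest -0.14 for JARID2 and -0.14 for MBNL1. LIFR-AS1 (-0.02) turned to 0.016 with quantile normalization and to 0.061 without si-SAM68 replicate 2, with a lowest leave-out value of -0.12. No other antisense transcript whose log2 fold change is given turned sign, and the cause of the lost calls was not tested.

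Of the 36 calls, 19 had a mean under 50, and depth as a limit was not tested.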
